A study of Mus musculus with 23 samples.

Results

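The gene models described here are 10 of the 56748 genes in the deposited table of read counts: Gm11518, Gm10288, Gm10076, Gm10175, Gm10736, Gm4786, Gm5805, Gm6552, Gm8624 and Gm10275. They were selected on measured values, because their levels shifted strongly between the intraperitoneal treatment groups, so their intraperitoneal values are given as a description without a test. RNA was sequenced from 23 subcutaneous melanoma tumors that grew from B16-F1 cells, a line derived from a C57BL/6 mouse, in DBA/2J mice aged 6 to 8 weeks. The reference genome represents the strain of the cell line, not that of the host. By the intraperitoneal (IP) route, with saline as the vehicle, CONTROL_IP, PTX_IP, NCTD_IP and MIX_IP held 2 tumors each. By the intratumoral (IT) route, with DMSO as the vehicle, CONTROL_IT, NCTD_IT and MIX_IT held 4 tumors each and PTX_IT held 3. PTX is pentoxifylline, a phosphodiesterase inhibitor, at 60 mg/kg, NCTD is norcantharidin, a demethylated analog of cantharidin, at 3 mg/kg, MIX is both drugs at these doses, and the control groups received the vehicle alone. Route, vehicle and the batch given in the labels coincide and cannot be told apart. Each library came from a tumor of its own, so errors and p-values measure the spread between these tumors. Libraries read the 3′ end of messenger RNA, and the gene counts of a tumor summed to 2861578 at the lowest and 6702374 at the highest. Levels are given in CPM, the counts scaled to a common library size, on one TMM scale over the 23 tumors, where TMM is edgeR's scaling of the library sizes. On that scale 3 counts, taken here as the floor, stood for 0.449 to 1.04 CPM.

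A processed pseudogene arises when a messenger RNA is reverse transcribed and inserted elsewhere in the genome, so it carries the exons of its parent gene without introns and often a run of A at its 3′ end. Ribosomal protein genes, whose messages are abundant and short, have left more such copies in mammalian genomes than most other gene families. Reads from the parent message can align to a copy where the sequences are the same, and a count assigned to the copy then need not come from transcription of that locus.

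By the deposited annotation 6 of the 10 models were processed pseudogenes (Gm11518, Gm10288, Gm10736, Gm4786, Gm5805 and Gm6552), 3 were transcribed processed pseudogenes (Gm10175, Gm8624 and Gm10275) and Gm10076 was a long non-coding RNA. Over all listed genes 9999 carried the first of these biotypes and 300 the second. Alignment of each model to the GENCODE transcripts of GRCm39 found a protein-coding parent for all 10. For 8 of them it was a gene of the cytosolic ribosome: Rpl27 for Gm11518, Rpl11 for Gm10288, Rpl41 for both Gm10076 and Gm10736, Rpl7a for Gm4786, Rps14 for Gm5805, Rps23 for Gm8624 and Rpl12 for Gm10275. The parent of Gm10175 was Atp5g2, which encodes a membrane subunit of mitochondrial ATP synthase, and that of Gm6552 was Eif3h, which encodes a subunit of a translation initiation factor complex. Proteins of the large ribosomal subunit are encoded by the Rpl genes and those of the small subunit by the Rps genes.

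Identity to the parent ran from complete to about 96%. Gm11518 (chr11:93928044-93928454, minus strand, 411 bases) matched Rpl27 at every base, Gm10175 (chr7:23646064-23646716, minus strand, 653 bases) matched Atp5g2 over 649 bases, Gm10275 (chr10:29574731-29575389, minus strand, 659 bases) matched Rpl12 over 634 bases, and Gm10736 (chr13:111730068-111730145, minus strand, 78 bases) matched Rpl41 throughout, all without a mismatch. Gm10288 (chr3:146544566-146545102, minus strand, 537 bases) differed from Rpl11 at 1 base, and Gm10076 (chr14:105919259-105919665, plus strand, 407 bases) from Rpl41 at 3 of 386 aligned bases. Gm4786 (chr17:16777508-16778305, plus strand, 798 bases) had 18 mismatches to Rpl7a and Gm5805 (chr15:81856591-81857046, plus strand, 456 bases) had 14 to Rps14. Gm6552 (chr17:80240941-80242001, minus strand, 1061 bases) was 96.3% identical to Eif3h. Gm8624 (chr11:117311463-117312543, minus strand) was 96.6% identical to Rps23 over 48.5% of its span, and its listed length of 669 bases was shorter than its span of 1081. Within their spans Gm11518 overlapped Spag9 and Gm10736 overlapped Gm15286, in both cases on the other strand, and the strand setting of the counting is not given in the sources used here. The longest run of A at the 3′ end was 18 bases in Gm10076, 15 in Gm8624, 10 in Gm10275 and at most 9 in the other 7.

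The stretches below show how the sequences differ, 5′ to 3′, with the models read from GRCm39 and the copies from its transcripts. Except for Gm10736, which is shown whole, they were chosen for the differences they hold. The libraries read the 3′ end of messenger RNA, so a stretch need not be one that reads cover. Capitals mark the positions at which the sequences of a set differ, and positions are counted from 1 at the 5′ end of the model. The first set gives positions 1 to 90 of Gm11518 (chr11:93928365-93928454, minus strand), with Rpl27 and with Gm6341, a further copy on chromosome 7 that enters the values below.
Gm11518: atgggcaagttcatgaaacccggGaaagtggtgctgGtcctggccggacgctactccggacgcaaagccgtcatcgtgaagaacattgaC
Rpl27: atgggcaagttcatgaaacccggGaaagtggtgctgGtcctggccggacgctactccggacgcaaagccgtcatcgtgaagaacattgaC
Gm6341: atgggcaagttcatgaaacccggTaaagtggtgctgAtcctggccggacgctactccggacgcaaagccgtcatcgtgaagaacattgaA
The next set gives positions 159 to 248 of Gm4786 (chr17:16777666-16777755, plus strand), the stretch of this length with the most differences from Rpl7a that aligned without a gap, of which it holds 5.
Gm4786: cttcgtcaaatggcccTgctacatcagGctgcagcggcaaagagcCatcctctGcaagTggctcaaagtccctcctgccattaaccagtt
Rpl7a: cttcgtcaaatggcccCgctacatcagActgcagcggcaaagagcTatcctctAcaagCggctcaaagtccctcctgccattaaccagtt
The only difference between Gm10288 and Rpl11 lies in positions 56 to 115 of the model (chr3:146544988-146545047, minus strand).
Gm10288: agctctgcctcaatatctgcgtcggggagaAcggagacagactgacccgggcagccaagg
Rpl11: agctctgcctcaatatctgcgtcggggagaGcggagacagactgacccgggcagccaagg
For Gm10275 the stretch at positions 434 to 493 (chr10:29574897-29574956, minus strand) equals that of Rpl12 and differs at 2 bases from Gm11425, another copy of Rpl12.
Gm10275: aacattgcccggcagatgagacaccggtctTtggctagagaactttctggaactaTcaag
Rpl12: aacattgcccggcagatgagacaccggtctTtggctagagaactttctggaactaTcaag
Gm11425: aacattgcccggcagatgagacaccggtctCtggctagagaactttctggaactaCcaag
Gm10736 is shown whole, since its 78 bases are the coding sequence of Rpl41 without a change.
Gm10736: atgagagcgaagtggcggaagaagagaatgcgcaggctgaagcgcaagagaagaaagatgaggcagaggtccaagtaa
Of the 90 bases of Gm8624 at positions 750 to 839 (chr11:117311705-117311794, minus strand), 5 differ from Rps23.
Gm8624: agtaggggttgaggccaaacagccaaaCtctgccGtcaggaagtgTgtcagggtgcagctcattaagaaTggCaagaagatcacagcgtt
Rps23: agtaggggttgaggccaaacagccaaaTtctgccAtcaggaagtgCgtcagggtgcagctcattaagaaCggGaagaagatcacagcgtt

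Exact identity to the parent was counted as the percentage of windows of 100 consecutive bases of the model that occur in a transcript of the parent. The windows run over the whole model, although the libraries read the 3′ end. This share was 100% for Gm11518, 99.3% for Gm10175, 95.5% for Gm10275 and 80.4% for Gm10288. It was 27.3% for Gm10076 and for Gm4786, 13.8% for Gm6552, 12.0% for Gm5805 and 1.53% for Gm8624, while Gm10736 is too short for such a window. For Gm8624 the windows cover the whole span of 1081 bases, of which 48.5% aligned to Rps23, so its shares are not comparable with the others. With windows of 150 bases, the length of a read of the sequenced pairs, the share was 100% for Gm11518, 99.2% for Gm10175, 95.1% for Gm10275 and 77.8% for Gm10288, but 8.78% for Gm4786, 8.77% for Gm6552, 0.388% for Gm10076 and 0% for Gm5805 and Gm8624. Every window of 150 bases of Gm11518 also occurred elsewhere in the genome, which for this intronless copy includes the pseudogene Rpl27-ps3, identical to it over 411 bases. How the authors' counting treated reads with several equal alignments is not given in the sources used here. For the sums below, a copy was any listed gene with a transcript at least 95% identical over at least 60% of the parent-derived stretch of the model, parent included. This gave 29 copies for Gm4786, 8 each for Gm10288, Gm8624 and Gm10275, 7 for Gm11518, 5 for Gm10736, 2 each for Gm10076, Gm10175 and Gm5805, and 1 for Gm6552. Some of them are protein-coding genes whose transcripts hold a retrocopy (Ttbk1, Mas1 and Agbl3). Copies other than the parents are named here after their values were seen.

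**Figure D1:**
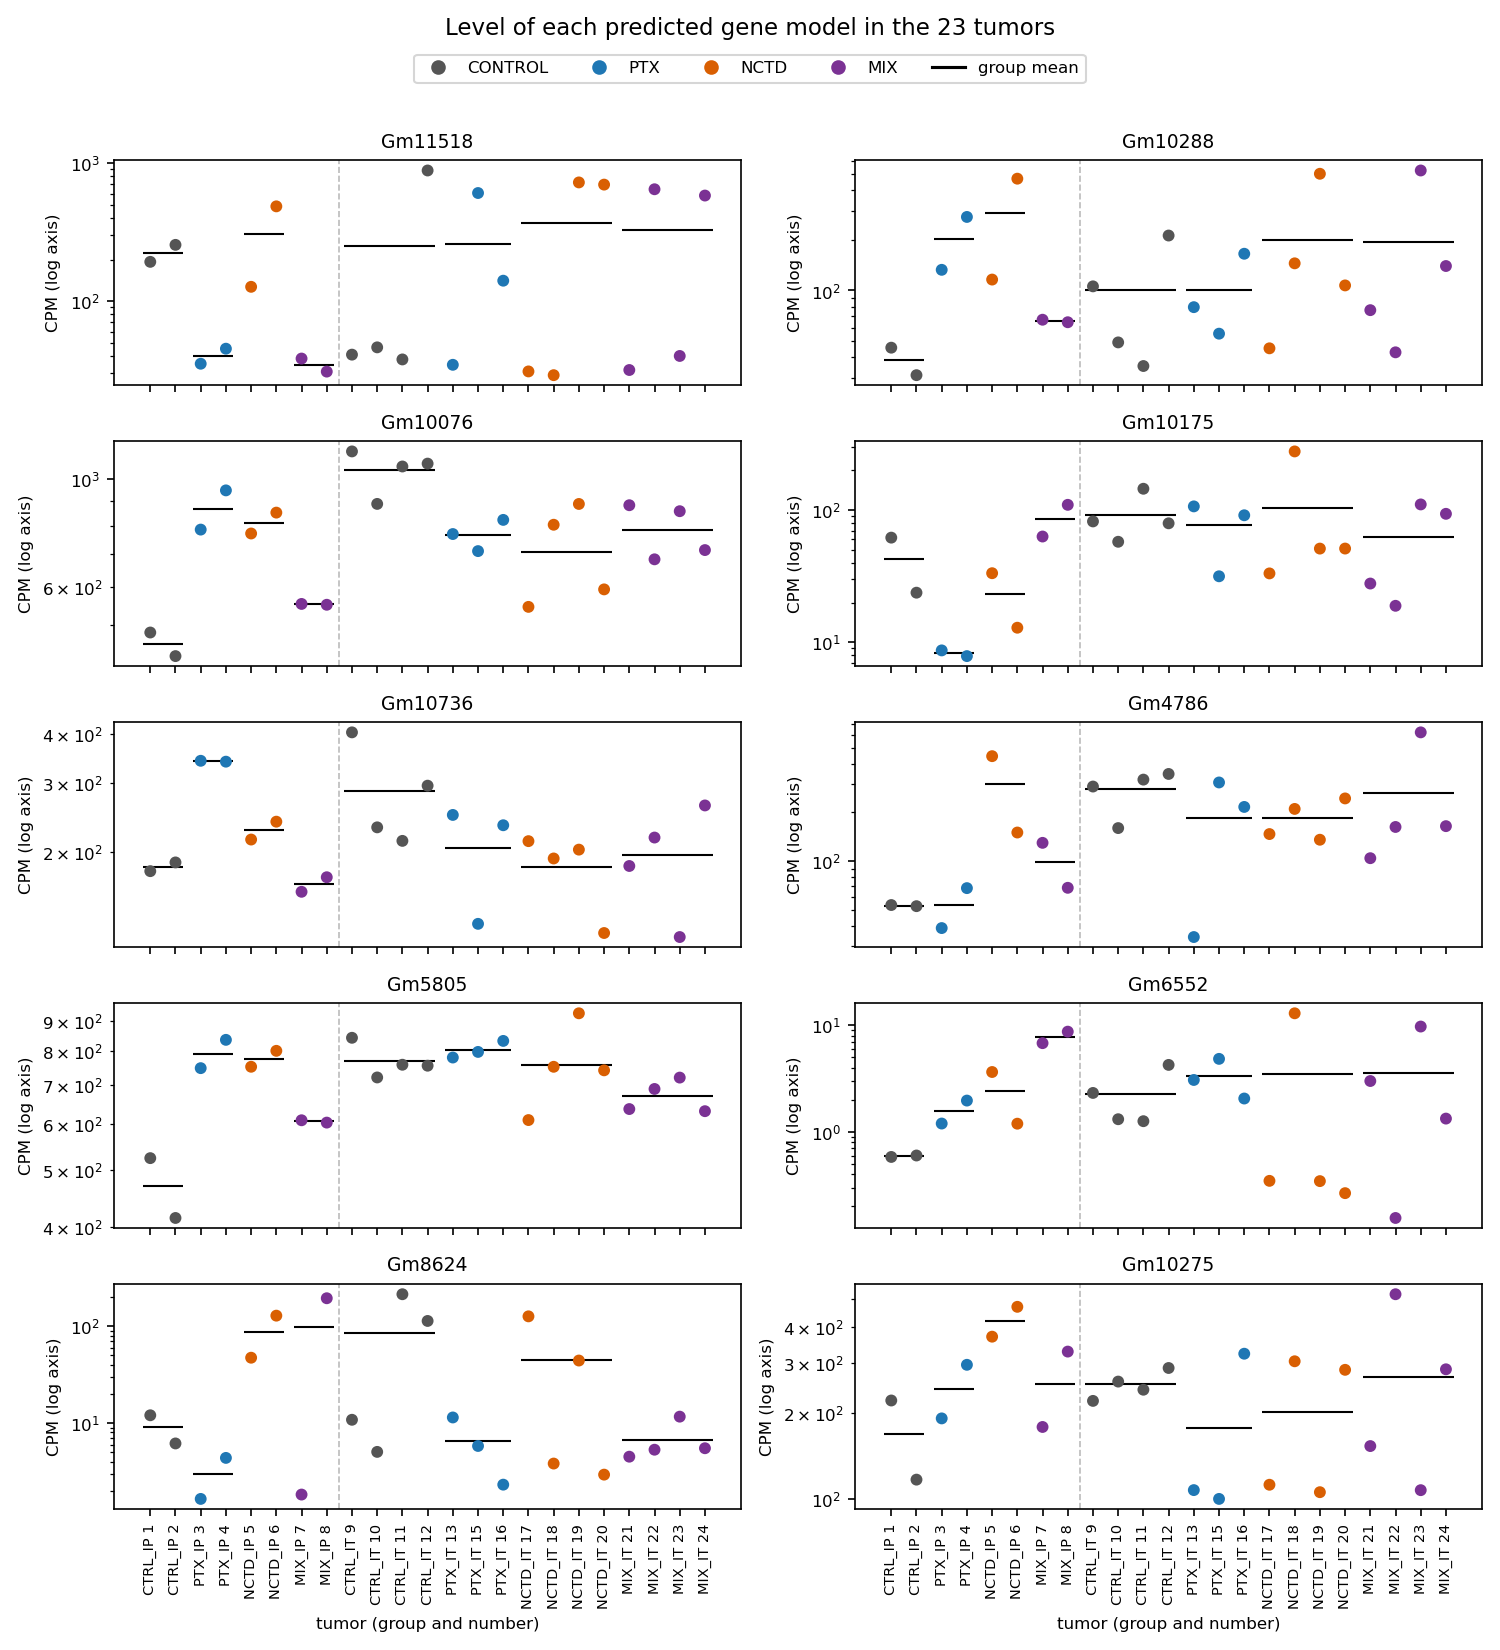
Level of each of the 10 models in the 23 tumors, in CPM on a log axis with 1 point per tumor, coloured by drug, a black line at the mean of each group, and a dashed line between the IP tumors on the left and the IT tumors on the right. Gm11518 jumps between low and high tumors inside every IT group and Gm8624 inside CONTROL_IT and NCTD_IT, while Gm10076, Gm5805 and Gm10736 stay within 3.33-fold over all tumors.

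In the IP groups, the contrasts that chose these genes, 5 of the 10 models moved by at least 1 on the log2 scale in NCTD_IP against CONTROL_IP, beside 4.7% of all 12424 genes fitted there. The same count was 5 in PTX_IP, beside 4.87% of genes, and 4 in MIX_IP, beside 5.34%. Nothing is read from these counts, since the choice of the genes used them. The fitted log2 fold changes ran from -2.68 (Gm11518 in MIX_IP) to 3.66 (Gm6552 in MIX_IP). The models did not move together: Gm11518 was at -2.48 and Gm10288 at 2.42 in PTX_IP, and Gm10175 was at -2.36 in PTX_IP and 1.03 in MIX_IP.

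Gm11518, the copy of Rpl27, switched between low and high levels from tumor to tumor. In the IP tumors it stood at 192 and 255 CPM in CONTROL_IP, 35.2 and 45.2 in PTX_IP, 127 and 485 in NCTD_IP, and 38.4 and 30.9 in MIX_IP. In the IT tumors it stood at 40.9, 46.2, 37.8 and 883 CPM in CONTROL_IT, 34.6, 606 and 140.5 in PTX_IT, 30.9, 29.1, 723 and 697 in NCTD_IT, and 31.7, 645, 40.1 and 581 in MIX_IT. Each IT group therefore held at least 1 tumor at 46.2 CPM or less and at least 1 at 581 CPM or more, and the groups overlapped over nearly the whole range. The mean of CONTROL_IT was 252 ± 420.5 CPM (SD, n = 4), and the lone tumor CONTROL_IT 12 carried it.

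In the tumors where Gm11518 was highest, 2 of its copies, Rpl27-ps3 and Gm6341, were low. In 12 tumors the model held 1.95% to 2.57% of the summed CPM of the family, in 4 tumors 7.12% to 18.2%, and in 7 tumors 28.8% to 42.2%. Those 7 were NCTD_IP 6, CONTROL_IT 12, PTX_IT 15, NCTD_IT 19, NCTD_IT 20, MIX_IT 22 and MIX_IT 24, at least 1 from every IT group. In these 7 tumors Gm6341 had 0 to 38 counts with a median of 1, against 55 to 1508 counts with a median of 189.5 in the 12 tumors with a low share. Rpl27-ps3 stood at 66.9 to 183 CPM in the 7 and at 250.4 to 424 CPM in the 12, so those ranges did not overlap. The 4 tumors between them overlapped both classes, with Rpl27-ps3 at 129.8 to 470.8 CPM and Gm6341 at 2 to 462 counts. Of these, PTX_IT 16, with Gm11518 at 140.5 CPM, had the highest Rpl27-ps3 of all 23 tumors. The parent Rpl27 varied far less, from 838 to 1385 CPM over all 23 tumors. These classes were drawn from the values themselves, so the ranges are a description.

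**Figure D2:**
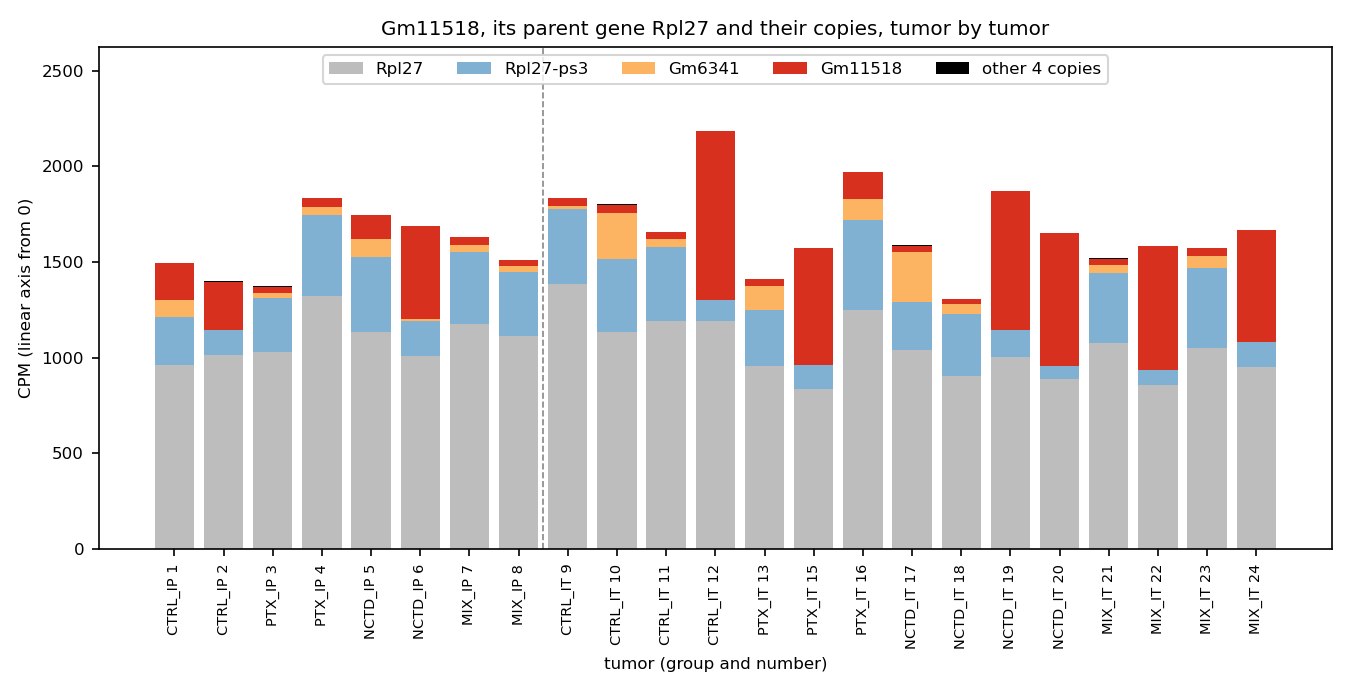
Stacked CPM of Gm11518, its parent Rpl27, the pseudogenes Rpl27-ps3 and Gm6341 and the other 4 copies, 1 bar per tumor on a linear axis from 0, with a dashed line between the IP and the IT tumors. In the 7 tumors where Gm11518 is tall, Rpl27-ps3 is short and Gm6341 is almost absent, and the height of the whole bar stays between 1309 and 2186 CPM.

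Summed over the family, the level spanned 1.67-fold over the 23 tumors, against 30.4-fold for Gm11518 alone. The coefficient of variation (CV, the SD divided by the mean) over the 15 IT tumors was 1.09 for the model, 0.225 for its copies and 0.133 for the sum. The SD of the sum was 223 CPM, where parts that varied without relation to each other would give 454. Among the IP groups, the highest group mean exceeded the lowest by 8.85-fold for the model and by 1.19-fold for the sum. The choice of the models used the IP values, so the IP folds of models and sums, here and below, are a description. The log2 fold changes of the sum were 0.15 in PTX_IP, 0.25 in NCTD_IP and 0.13 in MIX_IP, against -2.48, 0.45 and -2.68 for the model alone.

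Gm4786, the copy of Rpl7a, held most of its family in a pair of tumors. Its IP levels were 53.6 and 52.7 CPM in CONTROL_IP, 38.6 and 68.1 in PTX_IP, 444 and 150.2 in NCTD_IP, and 129.7 and 68.4 in MIX_IP. In the IT tumors they were 289, 159.9, 318 and 345 CPM in CONTROL_IT, 34.0, 306 and 216 in PTX_IT, 147, 210.0, 136 and 244 in NCTD_IT, and 104, 162, 623 and 164 in MIX_IT. The highest levels belonged to NCTD_IP 5 and MIX_IT 23, and these were the only tumors in which Rpl7a, otherwise at 271 to 1206 CPM, was nearly lost. Rpl7a stood at 26.3 CPM in NCTD_IP 5 and at 38.4 CPM in MIX_IT 23, where Gm4786 held 81.9% and 81.2% of the summed family. The difference between NCTD_IP and CONTROL_IP, a log2 fold change of 2.49 for Gm4786, was -0.77 for the sum, so its sign depended on whether the copies were counted with the model. Over the 15 IT tumors the CV was 0.602 for Gm4786, 0.378 for its copies and 0.184 for the sum.

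Gm10175 and its parent Atp5g2 showed the same opposition. The IP levels of Gm10175 were 61.9 and 23.7 CPM in CONTROL_IP, 8.68 and 7.86 in PTX_IP, 33.3 and 12.9 in NCTD_IP, and 63.1 and 109.7 in MIX_IP. The IT levels were 82.1, 57.6, 145 and 79.5 CPM in CONTROL_IT, 107, 31.6 and 91.4 in PTX_IT, 33.2, 278, 51.2 and 51.2 in NCTD_IT, and 27.8, 18.9, 110.4 and 93.8 in MIX_IT. The highest tumor, NCTD_IT 18, was also the tumor with the lowest Atp5g2 (46.4 CPM), and the model held 85.6% of the sum there. In the tumor with the lowest Gm10175, PTX_IP 4, Atp5g2 was at its highest (409 CPM) and the share of the model was 1.89%. The sum itself still spanned 3.98-fold, from 105 to 417 CPM, with a CV of 0.346 over the IT tumors against 0.770 for Gm10175 and 0.663 for the copies. The opposition did not hold in every tumor. In PTX_IP 3, with Gm10175 at 8.68 CPM, Atp5g2 was at 111 CPM, its median over the 23 tumors. In MIX_IT 22, with Gm10175 at 18.9 CPM, Atp5g2 was at 85.7 CPM. Against CONTROL_IP the log2 fold changes of Gm10175 were -2.36 in PTX_IP, -0.89 in NCTD_IP and 1.03 in MIX_IP. Those of the sum were 0.43 ± 0.55 (SE), 0.98 ± 0.55 and -0.44 ± 0.55. The sum stood at 122 and 417 CPM in PTX_IP and at 111 and 289 CPM in CONTROL_IP.

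**Figure D3:**
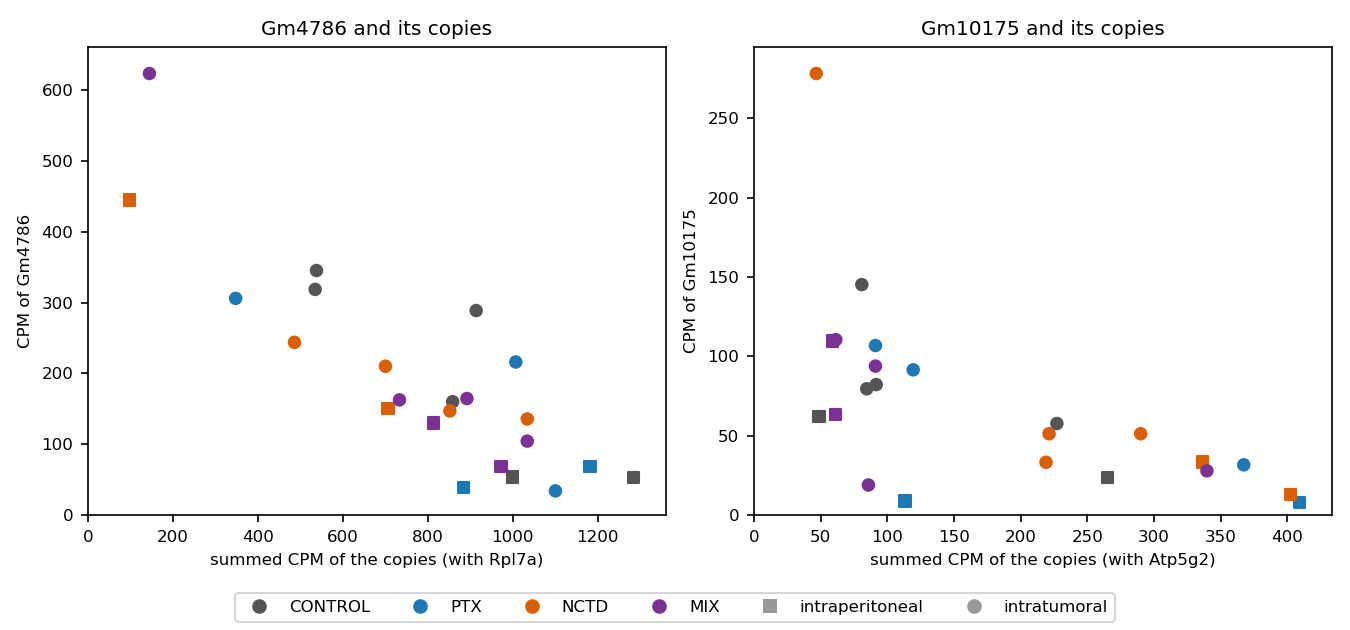
CPM of Gm4786 (left) and Gm10175 (right) against the summed CPM of their copies, with squares for IP tumors and circles for IT tumors, coloured by drug, both axes linear from 0. Most points fall from the upper left to the lower right, and NCTD_IP 5 and MIX_IT 23 lie at the upper left for Gm4786 and NCTD_IT 18 for Gm10175. For Gm10175, PTX_IP 3 and MIX_IT 22 lie at the lower left.

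The relation between a model and its copies was tested in the 15 IT tumors, which the choice of genes did not use, with permutation tests (two-sided, 100000 permutations) of log2 CPM for all 10 models and Benjamini-Hochberg adjustment over the 10. For Gm4786, Pearson's r was -0.74 (permutation p = 0.0049, adjusted 0.0139) and Spearman's rho was -0.79 (permutation p = 0.00086, adjusted 0.0086). Without the 2 tumors farthest from its median, PTX_IT 13 and MIX_IT 23, r was -0.71. For Gm10175, r was -0.70 (permutation p = 0.00345, adjusted 0.0139) and rho was -0.71 (permutation p = 0.00359, adjusted 0.0179), and r was -0.91 without MIX_IT 22 and NCTD_IT 18. After the mean of each group was subtracted, r was -0.80 for Gm4786 and -0.78 for Gm10175, so the relation was also present within groups. No pooled r is given for Gm11518 and Gm8624, whose levels fell into separate clusters. By rank, rho was -0.46 for Gm11518 (permutation p = 0.084, adjusted 0.168) and 0.025 for Gm8624 (permutation p = 0.934, adjusted 0.934).

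The pair of Rpl41 copies moved with their copies instead. For Gm10736, r was 0.68 (permutation p = 0.00557, adjusted 0.0139), rho was 0.59 (permutation p = 0.0225, adjusted 0.0562) and r was 0.71 without CONTROL_IT 9 and MIX_IT 23. For Gm10076, r was 0.60 (permutation p = 0.0193, adjusted 0.0385), rho was 0.61 (permutation p = 0.0176, adjusted 0.0562) and r was 0.52 without NCTD_IT 17 and NCTD_IT 20. With the group means subtracted, r was 0.57 for Gm10736 and 0.41 for Gm10076. The copies of Gm10736 include Gm10076, so these results share counts. For Gm10288, Gm5805, Gm6552 and Gm10275 the adjusted permutation p of r lay between 0.206 and 0.536. With the group means subtracted, r was -0.71 for Gm6552 and between -0.03 and 0.33 for the other 3. Before that subtraction, r for Gm6552 was -0.41, and it was 0.21 without NCTD_IT 18 and MIX_IT 23. Those tumors held 44 and 40 counts of Gm6552, so no relation is read for this model.

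Gm10288, a copy of Rpl11 that differs from it by 1 base, reached high levels in a few tumors while the parent stayed within its usual range. Its IP levels were 45.4 and 31.1 CPM in CONTROL_IP, 133 and 276 in PTX_IP, 116 and 467 in NCTD_IP, and 66.8 and 64.5 in MIX_IP. In the IT tumors they were 106, 48.9, 35.3 and 213 CPM in CONTROL_IT, 79.4, 55.1 and 166 in PTX_IT, 45.0, 145, 499.9 and 107 in NCTD_IT, and 76.2, 42.6, 523 and 140.1 in MIX_IT. The 3 highest tumors, NCTD_IP 6, NCTD_IT 19 and MIX_IT 23, came from 3 groups, and the IT groups overlapped. Rpl11 stood at 1718, 2487 and 1396 CPM in these tumors, inside its range of 1195 to 3263. The model held between 1.05% and 26.0% of the sum, and the parent spanned a wider range in CPM than the model.

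Gm10275, a copy of Rpl12, ranged from 100.2 to 519.6 CPM. It was at 221 and 117 CPM in CONTROL_IP and at 369 and 469.6 in NCTD_IP, while PTX_IP (191 and 295) and MIX_IP (179 and 328) overlapped the controls. The IT tumors held 220.4, 257, 241 and 287 CPM in CONTROL_IT, 108, 100.2 and 322 in PTX_IT, 112, 303, 106 and 283 in NCTD_IT, and 153, 519.6, 108 and 284 in MIX_IT. Treated tumors thus lay on both sides of the narrow CONTROL_IT range. In MIX_IT 22, the tumor with the highest Gm10275, the copy Gm11425 was at its lowest (36.7 CPM, against 91.9 to 257 in the other 22 tumors). The log2 fold change in NCTD_IP was 1.32 for the model and 0.26 for the sum.

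Gm8624, which carries a diverged copy of Rps23 in part of its span, had the widest range relative to its level, 130-fold from 1.65 to 214 CPM, on 7 to 850 counts. The IP tumors held 12.0 and 6.16 CPM in CONTROL_IP, 1.65 and 4.37 in PTX_IP, 47.3 and 129 in NCTD_IP, and 1.83 and 195 in MIX_IP. In the IT tumors it stood at 10.8, 5.04, 214 and 113 CPM in CONTROL_IT, 11.4, 5.80 and 2.31 in PTX_IT, 127, 3.82, 44.3 and 2.93 in NCTD_IT, and 4.50, 5.31, 11.7 and 5.50 in MIX_IT. The 7 tumors above 40 CPM came from 4 groups, and the 2 tumors of MIX_IP differed by 107-fold. Rps23 stayed between 1046 and 1715 CPM, and the model held at most 14.5% of the sum. Another copy of Rps23, Gm9701, also jumped, from 3.37 to 329 CPM, and it was above 100 CPM in CONTROL_IP 1, PTX_IP 4, NCTD_IP 5, NCTD_IT 18 and MIX_IT 24, of which NCTD_IP 5 alone was above 40 CPM for Gm8624.

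Gm6552, the copy of Eif3h, was near the floor. It had 3 and 4 counts in CONTROL_IP, 8 and 9 in PTX_IP, 13 and 5 in NCTD_IP, and 26 and 31 in MIX_IP. In the IT tumors there were 9, 6, 5 and 15 counts in CONTROL_IT, 11, 15 and 8 in PTX_IT, 2, 44, 1 and 1 in NCTD_IT, and 14, 1, 40 and 8 in MIX_IT. The value of 3.66 on the log2 scale in MIX_IP rested on 26 and 31 counts against 3 and 4. Eif3h stood at 143 to 450.1 CPM, and the log2 fold change of the sum in MIX_IP was 0.05.

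Gm10076, Gm5805 and Gm10736 were the models with even levels. Gm10076 was at 483 and 432 CPM in CONTROL_IP, below all 6 treated IP tumors (551 to 947). In CONTROL_IT it was at 1139, 888.4, 1061 and 1075 CPM, above all 11 treated IT tumors (546 to 888.2), though CONTROL_IT 10 and the highest of these, NCTD_IT 19, were nearly equal. Gm5805, the copy of Rps14, was at 524 and 414 CPM in CONTROL_IP, again below the 6 treated tumors (603 to 836), and in CONTROL_IT it was at 721 to 843 beside 609 to 929 in the treated IT tumors. Gm10736 was at 179 and 188 CPM in CONTROL_IP, 342 and 340.5 in PTX_IP, 215 and 239 in NCTD_IP, and 158 and 173 in MIX_IP. Its IT levels were 405, 231, 214 and 296 CPM in CONTROL_IT, 249, 131 and 234 in PTX_IT, 213, 193, 203 and 124 in NCTD_IT, and 184, 218, 121 and 263 in MIX_IT. The NCTD_IT tumors thus ended just below the lowest control, and the other drug groups overlapped the controls. Gm5805 differed from the other models in that it held more of its family than the parent did at the median tumor, with a share of 56.7% and a level of 747.8 CPM against 503 for Rps14. The CV over the IT tumors was 0.206 for Gm10076, 0.115 for Gm5805 and 0.328 for Gm10736, beside a median of 0.335 over the 13395 genes that passed the filter in all tumors and 0.225 over 96 ribosomal protein genes. In a bulk tumor, fewer cells that express a gene and less RNA of it per cell cannot be told apart.

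For all 10 models the CV of the sum was below that of the model over the 15 IT tumors. The same held over the 8 IP tumors, whose values chose the models, so that part is a description. Where a model is a small part of its family, a lower CV of the sum follows from the size of the parent alone. The sum then varied like the copies, as for Gm10288 (0.293 against 0.304 for the copies), Gm6552 (0.244 against 0.253) and Gm8624 (0.154 against 0.154). The SD of the sum over the IT tumors lay far below that of unrelated parts for Gm11518 (above), Gm10175 (84.8 against 124.8 CPM) and Gm4786 (179.8 against 314 CPM). It lay just below for Gm8624 (215 against 218 CPM) and Gm6552 (70.0 against 71.9 CPM), and above for the other 5. With the parent as the only copy, the CV of the sum over the IT tumors was 0.347 for Gm10175 and 0.200 for Gm4786. It was 0.229 for Gm11518, against 0.133 with all its copies. The parent Rpl27 was also lower at the median where Gm11518 was high. Its median was 954 CPM in the 7 tumors with a high share and 1094 in the 12 with a low share, with overlapping ranges.

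**Figure D4:**
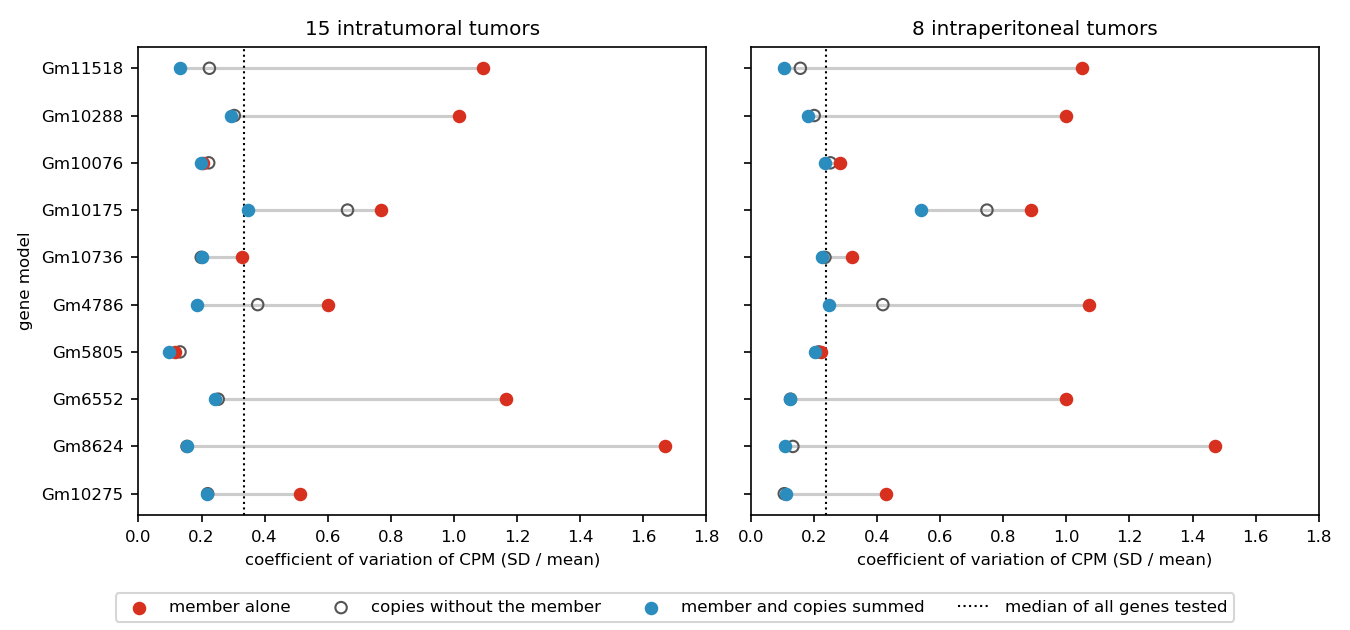
CV of CPM for each model alone (red), its copies without it (open circles) and both summed (blue), over the 15 IT tumors on the left and the 8 IP tumors on the right, with a dotted line at the median of all genes that passed the filter (0.335 and 0.239). Over the IT tumors the sum lies to the left of both parts for each model except Gm10736 and Gm8624, and it lies farthest below the copies for Gm10175, Gm4786 and Gm11518.

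In the IT tumors, which did not enter the choice, each drug group was compared with CONTROL_IT in edgeR's quasi-likelihood test over 12480 genes, with adjustment over all of them. All 10 models passed the filter on low counts. None of the 10 was called at an adjusted p below 0.05 in NCTD_IT, where 1.37% of all genes were, nor in PTX_IT or MIX_IT, where 0% of all genes were. At an unadjusted p below 0.05 there were 2 models in each comparison, beside 21.6% of genes in NCTD_IT, 6.35% in PTX_IT and 13% in MIX_IT. The count in NCTD_IT was thus near the share of all genes. By size, log2 values moved by 1 or more, up or down, for 0 models in NCTD_IT, beside 12.8% of genes, for 1 in PTX_IT (Gm8624), beside 7.48%, and for 1 in MIX_IT (Gm8624), beside 7.64%. DESeq2 called 1 model in NCTD_IT (Gm10076), beside 7.94% of genes, 0 in PTX_IT, beside 0.024%, and 1 in MIX_IT (Gm8624), beside 1.75%.

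The models with the largest jumps had the largest errors. For Gm11518 the log2 fold change was 0.55 ± 1.28 (SE) in NCTD_IT, 0.03 ± 1.38 in PTX_IT and 0.35 ± 1.27 in MIX_IT. Without CONTROL_IT 12 these values were 3.16, 2.64 and 2.96, none of them past the threshold. For Gm8624 it was -3.73 ± 1.32 in PTX_IT (edgeR adjusted p = 0.785) and -3.69 ± 1.15 in MIX_IT (edgeR adjusted p = 0.197), and both values rested on the tumors CONTROL_IT 11 and CONTROL_IT 12, since CONTROL_IT 9 and CONTROL_IT 10 lay within the range of the treated tumors. Without CONTROL_IT 11 they were -2.72 and -2.68. For Gm10288 it was 0.99 ± 0.79 in NCTD_IT and 0.96 ± 0.78 in MIX_IT, and it was -0.02 without NCTD_IT 19 and -0.22 without MIX_IT 23. With the copies added, the log2 fold changes of all 10 models lay between -0.62 and 0.49 in the 3 comparisons. The edgeR test called 0 of them. At an unadjusted p below 0.05 there were 4, 2 and 1 in NCTD_IT, PTX_IT and MIX_IT, beside 21.6%, 6.35% and 13% of genes. The sums of Gm10076 and Gm10736 both hold Rpl41 and Gm10076, so they share most of their counts and are not separate results. Their values were -0.44 and -0.46 in NCTD_IT and -0.44 each in PTX_IT.

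Gm10076, with its small error, was the only model whose IT drug groups all lay apart from CONTROL_IT, in NCTD_IT by a margin of under 1 CPM. It stood at 546, 805, 888.2 and 593 CPM in NCTD_IT, 770.4, 711 and 824 in PTX_IT, and 883, 683, 858 and 714 in MIX_IT. Its log2 fold change was -0.55 ± 0.17 in NCTD_IT (edgeR adjusted p = 0.0865, and 0.037 in DESeq2), -0.44 ± 0.19 in PTX_IT (0.785) and -0.41 ± 0.17 in MIX_IT (0.331), and every tumor of each drug group lay below every CONTROL_IT tumor. Of the 10 models, 2 lay below all controls in this way in NCTD_IT (with Gm10736), 1 in PTX_IT and 2 in MIX_IT (with Gm5805), beside 8.95%, 4.15% and 4.98% of all genes tested, and 0 lay above. The parent Rpl41 had log2 fold changes of -0.39 ± 0.21, -0.43 ± 0.23 and -0.14 ± 0.21 in the same order, and the median over 96 ribosomal protein genes was -0.39, -0.25 and -0.34, beside 0.03, 0.02 and 0.01 over all genes tested. The libraries of MIX_IT held 4128535 to 6559840 counts and those of CONTROL_IT 3523406 to 4607703. In CPM, Gm5805 was lower in the deeper IT libraries: r between its log2 CPM and the log2 of the total count over the 15 tumors was -0.81 (permutation p = 0.00029, adjusted 0.0029 over the 10 models) and rho was -0.76 (permutation p = 0.00133, adjusted 0.0133). Without MIX_IT 22 and MIX_IT 24, the tumors farthest from the median depth, r was -0.82, and with the group means subtracted it was -0.70. For Gm10076, r with depth was -0.39 (permutation p = 0.154, adjusted 0.257), rho was -0.20 (permutation p = 0.466, adjusted 0.609), r without the same tumors was -0.26, and r with the group means subtracted was -0.80. For the other models the adjusted permutation p of r with depth was 0.257 or higher. With the group means subtracted, their r with depth was -0.69 for Gm10288, -0.56 for Gm6552 and between -0.33 and 0.38 for the rest. The values with group means subtracted were not tested.

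**Figure D5:**
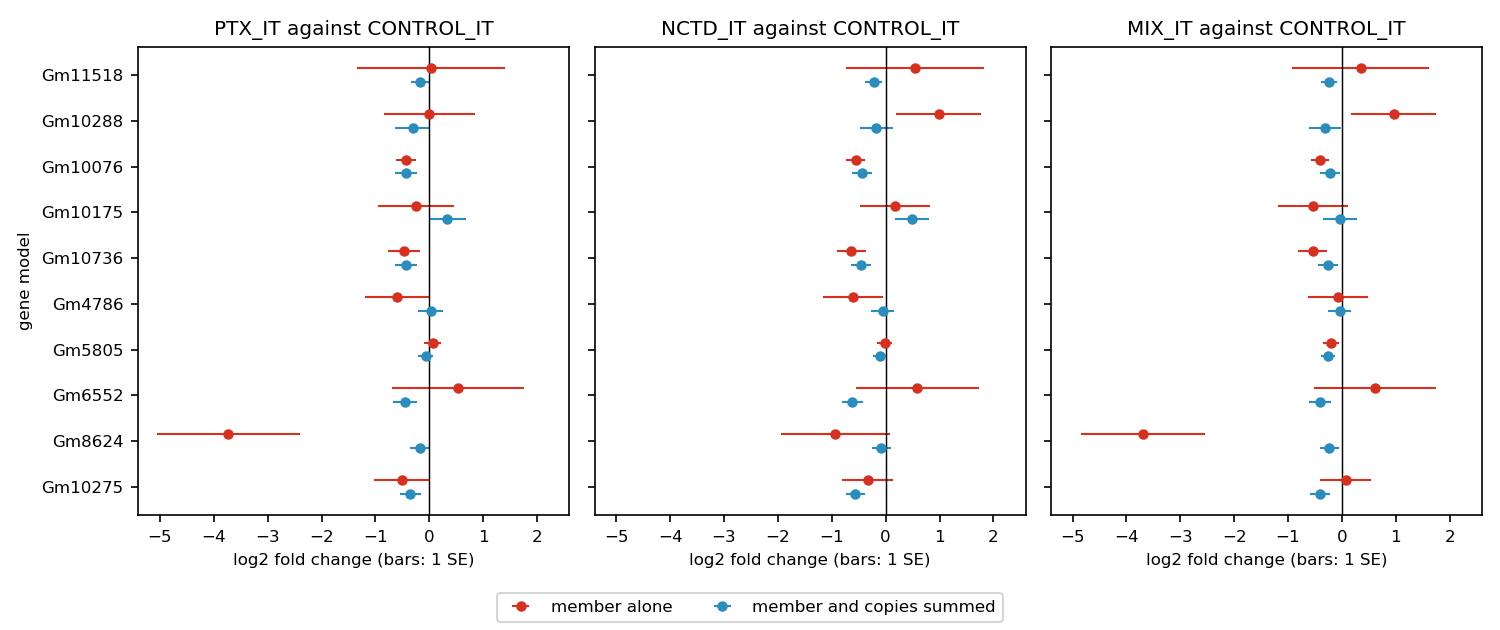
Log2 fold change of each model against CONTROL_IT in the 3 IT drug groups, for the model alone (red) and for the model summed with its copies (blue), with bars of 1 SE. The wide red bars of Gm11518, Gm6552 and Gm8624 become narrow blue ones between -0.62 and -0.08, while Gm10076 keeps a similar value and error in PTX_IT and NCTD_IT.

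Annotated pseudogenes had a higher median CV than all genes that passed the filter, without a test of that difference. The median over the IT tumors was 0.452 for the 533 processed pseudogenes that passed the filter of 9999 listed, and 0.674 for the 1022 of 25551 models named Gm and a number, which have low levels (median 2.35 CPM). The processed pseudogenes also had lower levels, with a median of 7.64 CPM against 18.4 CPM over all genes that passed, so the lists differ in level too. In NCTD_IT 6 of 467 processed pseudogenes tested were called, beside 171 of all 12480 genes. Of the 10 models, 6 had an IT CV above 0.6 and 4 below.

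The genes whose log2 CPM over the 23 tumors was most like that of a model were seldom its relatives. Among the closest were Gse1 for Gm11518 (r = 0.75), Telo2 for Gm10288 (0.74), Ptbp1 for Gm10175 (0.69), Timm8a1 for Gm6552 (0.76), Ciao1 for Gm8624 (0.63) and Tut1 for Gm10275 (0.74), and no parent or copy was among the 2 closest genes of these 6. Gm10736 was closest to Rpl13-ps3 (0.84) and Rpl35 (0.83), Gm5805 to Rpl36-ps2 (0.81) and Gm10076 (0.79), and Gm10076 to Gm5805 (0.79) and Igfbp4 (0.77). These correlations are maxima over all genes that passed the filter, taken over tumors of different groups and depths, and are given as a description.

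The tumors carried their labelled identity, with all 8 melanoma markers detected in all 23 tumors at a summed 16897 to 40411 CPM. Markers of other cells also varied, from 123 to 1104 CPM for 5 macrophage markers, 84.7 to 7506 for 4 fibroblast markers and 245 to 6944 for 4 erythroid markers. Their part in the values of the models was not tested. Tumors within a group were distinct libraries, since chi-square divided by its degrees of freedom ran from 8.80 to 71.8 over the 25 pairs.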

How the data were processed

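RNA of 23 tumors was read with a 3′ mRNA library kit. The authors trimmed the paired reads with Trimmomatic, then used STAR 2.7.11b both to align them to GRCm39 and to quantify the genes. They deposited whole-number read counts per gene, with no normalization. Multimapping, strand and duplicate settings are not given in the sources used here. From these counts, edgeR 4.0.16 (R 4.3.3) gave TMM-scaled CPM and quasi-likelihood tests with Benjamini-Hochberg adjustment over all genes that passed filterByExpr (minimum count 10, minimum total count 15). The 15 IT tumors shared 1 model, and the 8 IP tumors another that gave fold changes only. Copies were found with BLAST+ 2.17.0 at 95% identity over 60% of the parent-derived stretch, thresholds set after the data were seen, and CPM of a model and its copies were added. Correlations used log2(CPM + 0.5).

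The models named are the 10 chosen, their parents and copies, and from the 2 genes with the most similar levels to each, of which some are not reported here. Members and lists were chosen with earlier results of these data known. The fits were tested on simulated counts. Alternatives were DESeq2 1.42.0, its size factors, no filter, other sets of tumors, each tumor left out, and the summed families. Total counts of 2861578 to 6702374 per tumor limit the precision at low levels, and the floors cover counting error only.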

Additional observations from a re-analysis of the deposited data

Results flagged for a closer look

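In 5 of 30 sets of 4 IT tumors, a tumor stood far from the other 3 by Dixon's criterion. Normally distributed values meet it in about 1 of 20 sets. It was applied to CPM without a log, and the sets reuse the same tumors, so no excess is read from this count. Gm11518 was at 883 CPM in CONTROL_IT 12, against at most 46.2 in the other controls. Gm10175 was at 278 CPM in NCTD_IT 18 and Gm6552 at 12.9 CPM in the same tumor. In MIX_IT 23, Gm4786 was at 623 CPM and Gm8624 at 11.7 CPM.

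In 7 of 30 pairs of a model and a drug, every IP tumor lay on one side of its control mean and every IT tumor on the other. These were 2 of 10 models for PTX, 3 for NCTD and 2 for MIX, beside 12.1%, 13.6% and 13.1% of the 13395 genes that passed the filter. Nothing is read from these counts, since the IP values chose the models. The difference between routes was not tested, and route, vehicle and batch cannot be told apart. For Gm10076 the mean log2 differences were 0.92 (IP) and -0.43 (IT) for PTX, 0.83 and -0.58 for NCTD, and 0.27 and -0.41 for MIX. For Gm10736 they were 0.89 and -0.49 for PTX, and 0.31 and -0.63 for NCTD. Gm4786 had 2.27 and -0.58 for NCTD, and Gm5805 had 0.38 and -0.20 for MIX. With 2 tumors in each IP group, the IP means rest on few values.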

How the results depend on the processing

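The count of models called, 0 in each IT comparison, changed under 3 settings. DESeq2 called 1 in NCTD_IT (Gm10076) and 1 in MIX_IT (Gm8624), a fit of all 23 tumors called 1 in NCTD_IT (Gm10076, edgeR adjusted p = 0.0388), and without the filter edgeR called 2 in NCTD_IT and 2 in MIX_IT (Gm10288 and Gm8624) and 1 in PTX_IT (Gm8624). The cause was not tested. Over all genes, 171 calls in NCTD_IT became 991 with DESeq2, 1190 without the filter, 946 with only the 2 groups and 777 with all tumors. The 0 calls in PTX_IT became 3 with DESeq2 and 222 without the filter, and those in MIX_IT 218, 364 and, with all tumors, 9.

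Adding the copies turned the sign of 12 of 30 IT log2 fold changes: in NCTD_IT to -0.22 (Gm11518), -0.17 (Gm10288) and -0.62 (Gm6552), in PTX_IT to -0.18 (Gm11518), 0.34 (Gm10175), 0.024 (Gm4786), -0.063 (Gm5805) and -0.45 (Gm6552), and in MIX_IT to -0.24 (Gm11518), -0.31 (Gm10288), -0.40 (Gm6552) and -0.41 (Gm10275). With only the 2 groups, Gm5805 in NCTD_IT was at 0.0043, and 28 of 30 values could be fitted. Leaving out 1 tumor at a time turned the sign of 14 of the 30. In NCTD_IT the range was -0.010 to 3.16 for Gm11518, -0.016 to 1.68 for Gm10288, -1.01 to 0.52 for Gm10175, -0.13 to 0.084 for Gm5805, -2.70 to 1.08 for Gm6552 and -2.35 to 0.069 for Gm8624. In PTX_IT the range was -1.52 to 2.64 for Gm11518, -0.59 to 0.67 for Gm10288 and -0.57 to 0.13 for Gm10175. In MIX_IT the range was -0.21 to 2.96 for Gm11518, -0.22 to 1.65 for Gm10288, -0.96 to 0.19 for Gm4786, -0.63 to 1.10 for Gm6552 and -0.47 to 0.34 for Gm10275. In the IP groups, adding the copies moved 21 of 30 values by more than the spread between tumors, and leaving out 1 tumor moved 20 of 120. No paired analysis was made, because the labels used here give nothing that matches a tumor of one group to a tumor of another.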
